A study of Mus musculus with 12 samples.

Results

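Alveolar type 2 (AT2) cells sorted from the lungs of mice whose T cells lack Med23 were compared with AT2 cells of wild-type mice, before any tumour had formed. The comparison used 6 of the 12 libraries of the study, chosen by genotype and cell type as labelled: wild type from mice 176, 177 and 190, knockout from mice 175, 179 and 191. All 6 mice were C57BL/6 and 6 months old, and each library is a separate numbered animal. The wild-type group carried no stated alteration, and the knockout group carried a deletion of Med23 in T cells. The labels give neither the driver of the deletion nor the markers of the sort, so it is not known here whether the controls carried unrecombined alleles or the driver alone. The other 6 libraries are lung tumours and adjacent tissue of knockout mice aged 18 months.

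AT2 cells make and secrete pulmonary surfactant, the lipid and protein film that keeps alveoli open, and they divide to renew themselves and the flat AT1 cells that exchange gas. They are also a common cell of origin of lung adenocarcinoma. Med23 is a subunit of Mediator, the complex that connects transcription factors with RNA polymerase II. Because the deletion was in T cells, the AT2 cells carried an intact Med23 gene by design, and the comparison asks how epithelial cells differed in a lung with altered T cells. By the title and design of the series, the study concerned the phenotype of these cells before tumours arose and oxidative damage.

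The AT2 libraries held 15943084 to 18913242 counts, with 12538 to 13054 genes at 1 CPM or more (CPM, the count of a gene scaled to a common library size). The cells carried the markers of their label. Sftpc, the surfactant protein made by AT2 cells alone among lung cells, took 7.04% to 10.1% of all counts, and the summed level of T cell markers stayed at 0.745 to 3.74 CPM.

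Of the 6 libraries, wild-type 177 stood farthest from the rest and wild-type 176 next. Over 10097 genes with a mean of at least 5 CPM, the median absolute log2 difference was 0.37 between 176 and 177, 0.33 between 177 and 190, and 0.24 between 176 and 190. Between knockout libraries it was 0.11 to 0.12. Wild-type 190 lay as near to each knockout library (0.12) as these lay to each other. Wild-type 177 held the value farthest from the median of the 6 libraries in 46.0% of tested genes, 176 in 24.6%, and each of the others in 6.16% to 7.90%. Every library carried a trend with transcript length. The Spearman rho across genes, between length and a library's deviation from the mean of the 6, was -0.23 in 176 and -0.35 in 177. The trend was strongest in wild-type 190 (0.47), in the other direction, and was 0.19 to 0.28 in the knockout libraries. Library 176 had in addition a GC content trend (rho 0.52) and the lowest share of mitochondrial counts (1.32%), and 177 the opposite GC trend (-0.42) and the highest mitochondrial share (4.57%). The part of these trends in any difference between genotypes was not tested. Results are given also without 176 and 177, a setting chosen after seeing the data. There wild-type 190 alone is set against the 3 knockout libraries and is assumed to vary as they do. Since 190 was already the wild-type library nearest to them, smaller differences in that setting follow in part from the choice. They do not tell what 176 and 177 contributed.

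**Figure D1:**
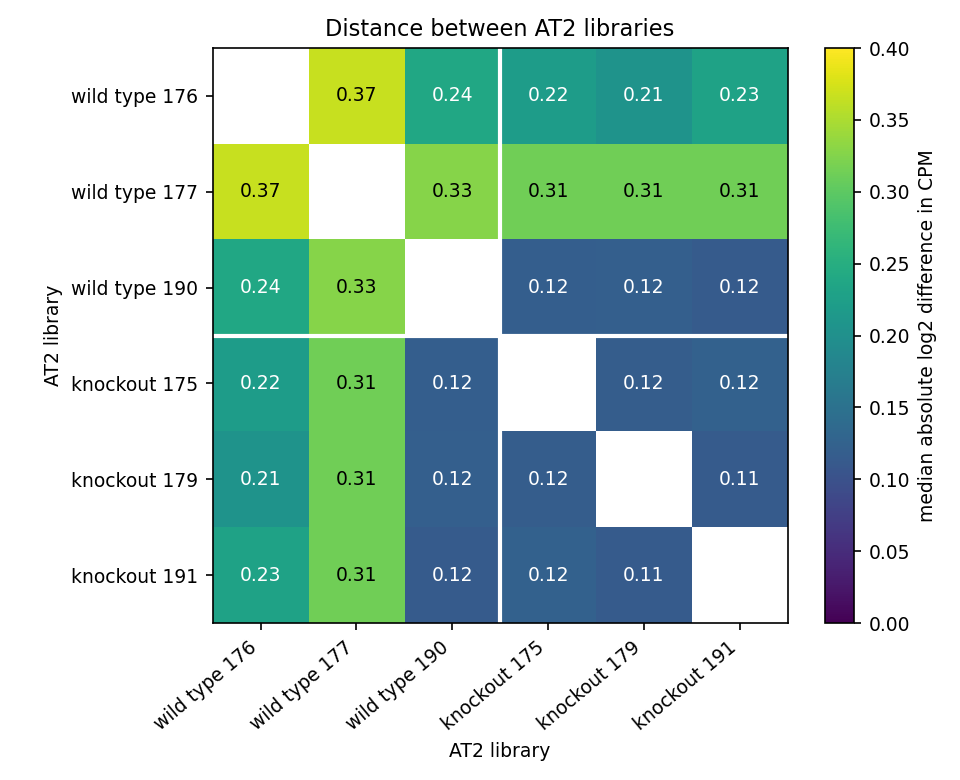
Median absolute log2 difference in CPM between each pair of the 6 AT2 libraries, over genes with a mean of at least 5 CPM; the white lines divide wild type from knockout. Wild-type 177 (0.31 to 0.37 from every other library) and wild-type 176 (0.21 to 0.37) are the distant libraries, while wild-type 190 and the 3 knockout libraries form a tight block at 0.11 to 0.12.

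No gene passed the test between genotypes. Of 14053 genes tested with edgeR's quasi-likelihood test, 0 had an adjusted p (Benjamini-Hochberg) under 0.05, which is 0% of genes, and the smallest adjusted p was 0.447. An unadjusted p under 0.05 was found for 347 genes, or 2.47%, with 185 at higher and 162 at lower values in knockout cells. DESeq2 called 1 gene, Gm23935, described below. The p-values measure the spread between these 6 mice.

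The differences were small. The median log2 fold change, knockout over wild type, was -0.01, and its median absolute size was 0.16. Fitted changes went past 2-fold in 226 genes (1.61%), but in only 8 of the 10097 genes with a mean of at least 5 CPM. These 8 were Hspa1a, Hspa1b, Pcdhgb6, Spink5, Gm29216 and Gm21887 on the higher side and Atp6v0a4 and Snrpe on the lower side, a group singled out after its values were seen. Hspa1a, Hspa1b, Pcdhgb6 and Atp6v0a4 had groups that did not overlap, whereas the other 4 varied within a genotype: Spink5 had 0 counts in 2 wild-type libraries, Gm29216 and Gm21887 were highest in knockout 179 alone, and Snrpe in wild-type 177.

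A gene that does not pass may still differ by an amount that the data can or cannot limit, so a 95% interval was computed for each fold change from the same fit. The interval lay wholly within 2-fold, up or down, in 10663 genes (75.9%), and within 1.5-fold in 6258 (44.5%). It lay within 1.2-fold in 0 genes, as the median half-width of an interval was 0.44 on the log2 scale, or 1.36-fold. In a test of equivalence within 2-fold, adjusted over all genes, 11110 genes (79.1%) passed, and these genes carried 97.5% of all counts. The limit was the abundance of a transcript. Intervals lay within 2-fold in 0 of 1236 genes with a mean under 1 CPM, in 34.2% of those at 1 to 5 CPM, in 91.9% at 5 to 20 CPM, in 98.8% at 20 to 100 CPM and in 98.6% at 100 to 1000 CPM. The share was lower again, 87.7%, among the 65 genes at 1000 CPM or more, where wild-type libraries spread most relative to knockout ones.

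**Figure D2:**
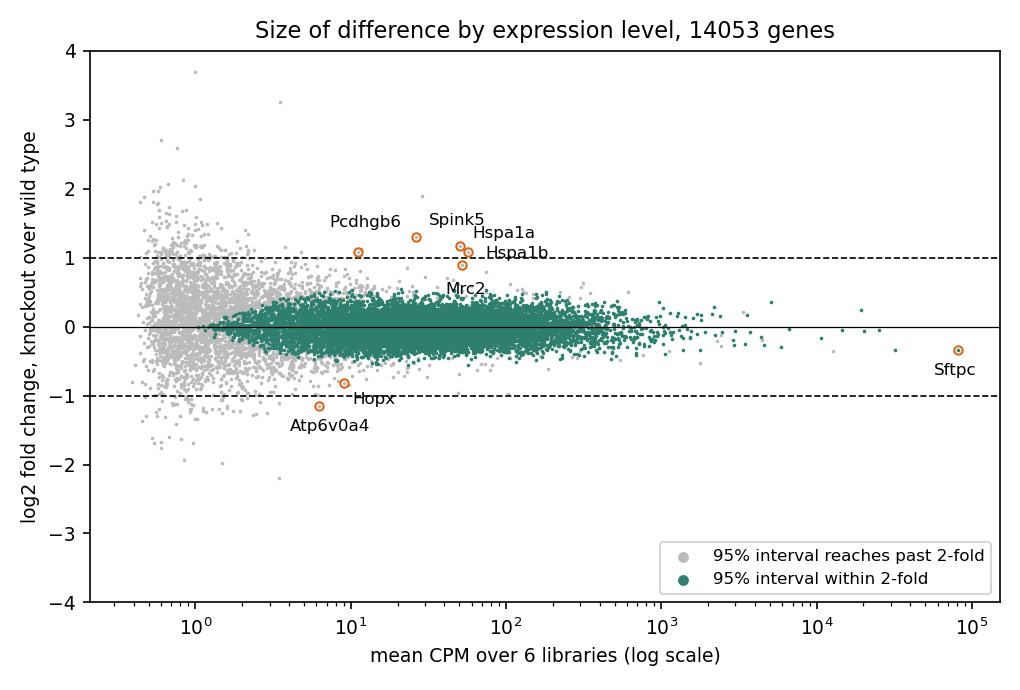
Fitted log2 fold change, knockout over wild type, against mean CPM (log axis) for the 14053 tested genes; dashed lines mark 2-fold, green points have a 95% interval within 2-fold, and orange circles mark genes named in the text. Nearly all points past the dashed lines lie under 5 CPM, and Sftpc, the most abundant gene, lies at -0.33.

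The genotypes differed in how far their own libraries spread. The wider group, wild type, holds 176 and 177, the libraries with opposite GC trends and the extreme mitochondrial shares. The part of these traits in the spread was not tested. The median SD of log2 CPM over 3 libraries was 0.30 in wild type and 0.13 in knockout, and the SD was larger in wild type for 11078 genes (78.8%). The biological coefficient of variation of each genotype fitted alone was 25.8% in wild type and 10.2% in knockout. Without library 177 it was 19.02% in wild type and the median SD was 0.20. Without 176 or without 190 the median SD was 0.27 and 0.30. Each pair of knockout libraries gave 0.11 to 0.12. No test of this difference was made with 3 libraries in each group. It was smaller without 177, and each pair of wild-type libraries still spread more than any pair of knockout libraries. The ratio of the median SDs, wild type over knockout, was 1.37 under 1 CPM and 4.16 at 1000 CPM or more, where counting error is smallest.

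**Figure D3:**
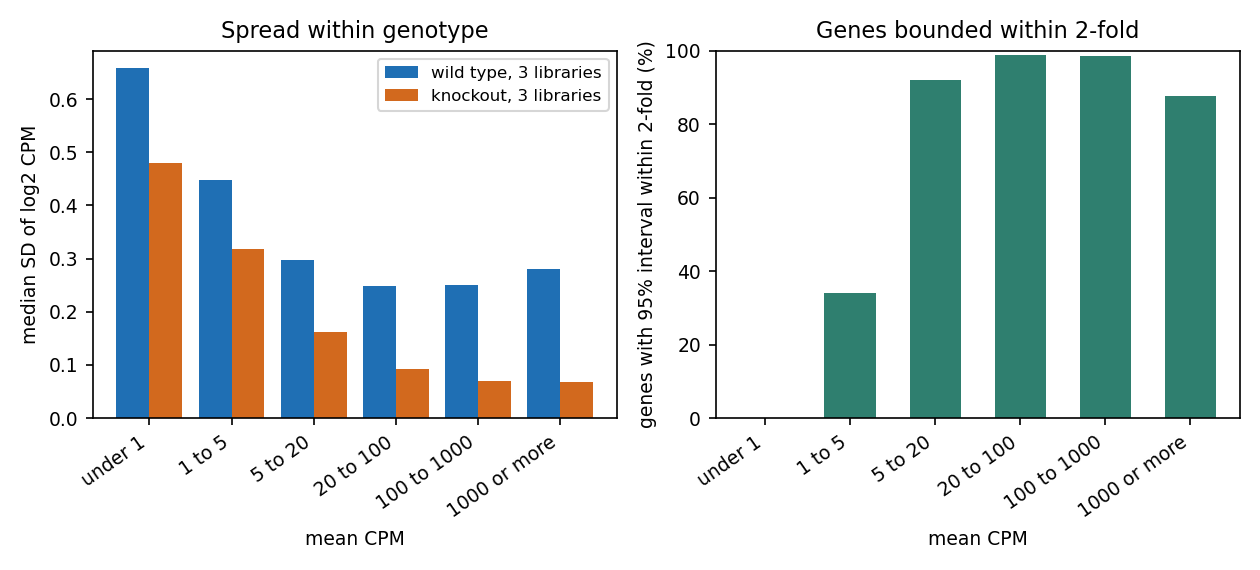
Left, median SD of log2 CPM over the 3 libraries of each genotype by mean CPM of the gene; right, percentage of genes whose 95% interval lies within 2-fold, in the same classes. Knockout spread falls from 0.48 to 0.07 with abundance while wild-type spread levels off near 0.25 to 0.28, and the bounded share goes from 0% to 98.8%.

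All 20 AT2 identity genes were bounded within 2-fold, against 75.9% of all genes, with a median log2 fold change of -0.06. This list holds abundant genes, which have narrow intervals. Sftpc (ENSMUSG00000022097, GRCm38 chromosome 14, 70520949 to 70524081) held 100613, 103247 and 69685 CPM in wild type 176, 177 and 190, against 73601, 72031 and 71520 CPM in knockout 175, 179 and 191. Wild-type 176 and 177 were high, and 190 lay below all knockout libraries. The log2 fold change was -0.33 ± 0.20 (SE), with an interval of -0.77 to 0.11, and without 176 and 177 it was 0.05. In bulk RNA of a sort, fewer cells of a type and less RNA per cell cannot be told apart.

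Of the other surfactant proteins, Sftpb, needed to spread the film, was at 27936, 24511 and 24757 CPM in wild type, against 23927, 25934 and 24536 CPM in knockout, a log2 fold change of -0.05 ± 0.17. Sftpa1, a collectin that binds microbes, was at 17738, 23500 and 20033 against 19225, 19576 and 20096 CPM (-0.06 ± 0.18). In both genes the groups overlapped, and the knockout libraries lay inside the wild-type range or next to it. The collectin Sftpd had a log2 fold change of -0.08 ± 0.15.

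Some identity genes spread over the wild-type libraries alone. Lyz2, the lysozyme of AT2 cells and macrophages, was at 27318, 50955 and 28914 CPM in wild type, against 27456 to 28845 CPM in knockout, so only 177 stood apart. Its fold change was -0.33 ± 0.24, and -0.03 without 176 and 177. Cxcl15, the lung chemokine, had the same form: 8125, 15977 and 9746 CPM against 9778 to 10213 CPM. Abca3, the lipid pump of lamellar bodies, was low in 177 alone: 4034, 2023 and 3948 CPM against 3491 to 3868 CPM. Nkx2-1, the transcription factor that sets lung identity, was the only gene of the list whose groups did not overlap, at 778, 664 and 750 CPM in wild type, against 822, 788 and 805 CPM in knockout (0.14 ± 0.15), where 8.3% of all genes had groups that did not overlap.

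**Figure D4:**
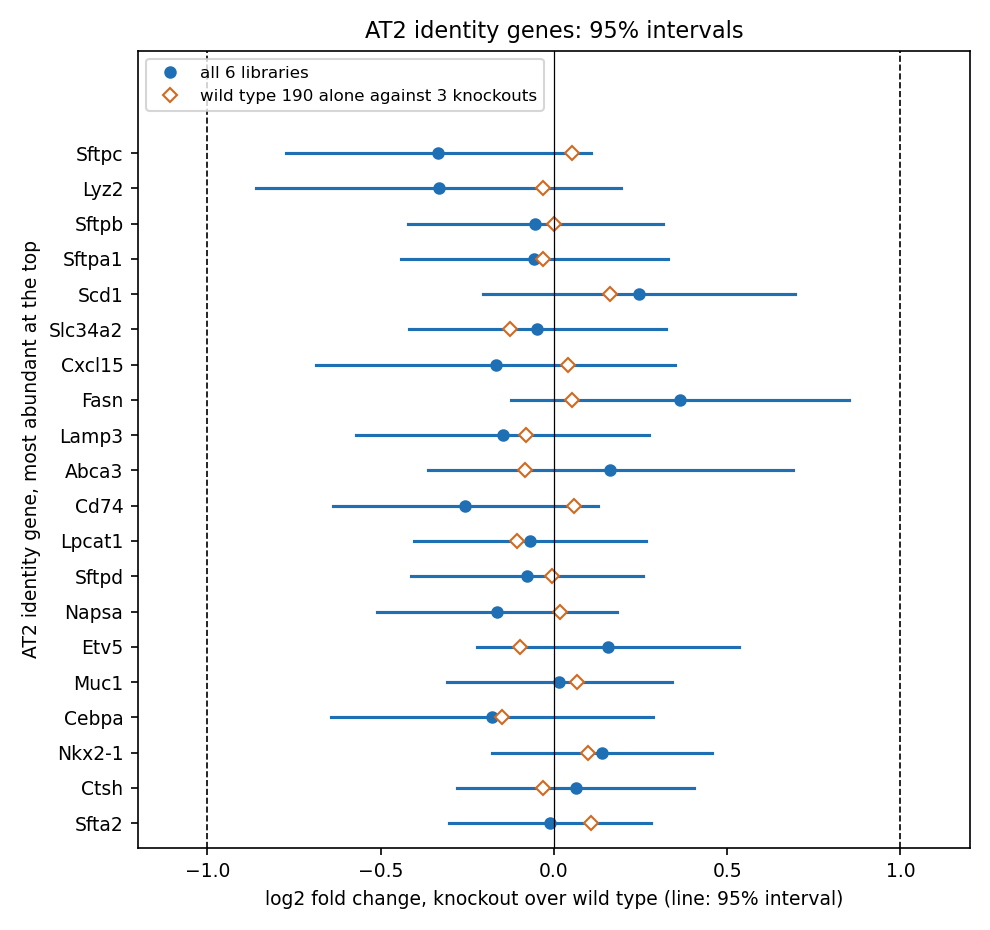
Log2 fold change of the 20 AT2 identity genes, ordered by abundance, with 95% intervals from all 6 libraries (blue) and the value with wild-type 190 as the only wild type (orange diamonds). Every blue line stays between the dashed lines at 2-fold, the widest bounds being -0.86 for Lyz2 and 0.85 for Fasn, and the diamonds lie near 0.

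Markers of the AT1 fate and of the transitional state between AT2 and AT1 cells were measured too. Of 11 AT1 genes tested, 0 passed and 9 were bounded within 2-fold. Hopx, a homeodomain protein of AT1 cells, was at 8.82, 15.2 and 10.7 CPM in wild type, against 5.84, 6.92 and 6.87 CPM in knockout. Its groups did not overlap, its log2 fold change was -0.82 ± 0.23, and its unadjusted p was 0.0048 by edgeR (adjusted p 0.984). Other AT1 genes did not share this difference: Ager, the AT1 receptor for glycation products, had -0.13 ± 0.17, Aqp5, a water channel, -0.10 ± 0.15, and Pdpn 0.30 ± 0.37. In the transitional state list 10 of 11 tested genes were bounded within 2-fold. The keratin Krt8, its usual marker, was at 291, 241 and 209 CPM in wild type, against 214, 230 and 235 CPM in knockout (-0.13 ± 0.16), and Sfn and Krt18 had their highest values in wild-type 176.

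The gene of smallest p was Gm23935 (ENSMUSG00000076258), a predicted microRNA gene by its GENCODE M21 annotation only. Whether its counts come from a microRNA was not tested. It has 57 bases on the plus strand of chromosome 16 at 11144125 to 11144181 (GRCm38). It lies inside an intron of Zc3h7a, which is transcribed from the other strand. Predicted genes lie outside the rule for named genes, and it is given because it is the only gene that DESeq2 called. Its sequence is shown because GENCODE M21 lists the same 57 bases at 3 places in the genome, so its counts cannot be assigned to this place alone:
Gm23935: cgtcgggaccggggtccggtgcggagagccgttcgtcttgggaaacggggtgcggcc
Wild-type libraries held 57.1, 64.1 and 72.8 CPM, against 34.9, 31.6 and 33.5 CPM in knockout, with every knockout library below every wild-type library. The log2 fold change was -0.96 ± 0.14, with an interval of -1.27 to -0.64 and an adjusted p of 0.447 in edgeR and 0.000236 in DESeq2. Of the identical copies, Gm24270 on chromosome 9 was at 2.35, 4.70 and 2.87 against 1.40, 1.10 and 1.57 CPM, and Gm24245 on chromosome 4 had 0 counts. The surrounding gene Zc3h7a had a log2 fold change of 0.02 ± 0.14.

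Of the genes with the smallest p on the higher side, Hspa1a and Hspa1b, near-identical genes for a stress-inducible heat shock chaperone, are described first. They lie next to each other on the minus strand of chromosome 17, Hspa1a at 34969190 to 34972156 and Hspa1b at 34956436 to 34959238. The 250 bases before each start, from RefSeq on GRCm38.p6 (matched by symbol for 2 of 2 genes), are shown because both genes had higher values in every knockout library, with matches to the heat shock element GAANNTTC, a palindrome and so the same on both strands, in capitals.
Hspa1a, chr17:34972157-34972406: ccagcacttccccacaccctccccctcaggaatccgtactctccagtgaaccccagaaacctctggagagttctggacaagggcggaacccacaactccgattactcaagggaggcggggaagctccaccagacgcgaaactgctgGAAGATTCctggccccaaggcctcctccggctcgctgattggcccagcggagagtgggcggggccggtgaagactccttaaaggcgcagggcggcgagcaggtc
Hspa1b, chr17:34959239-34959488: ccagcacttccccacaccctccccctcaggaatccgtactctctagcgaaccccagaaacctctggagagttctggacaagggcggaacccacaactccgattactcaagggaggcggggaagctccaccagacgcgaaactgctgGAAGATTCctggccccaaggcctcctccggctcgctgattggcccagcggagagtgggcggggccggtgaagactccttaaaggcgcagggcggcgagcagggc
The windows are identical at 247 of 250 positions, counted from the 5′ end, and differ by C44T, T47C and T249G from Hspa1a to Hspa1b. Each holds 1 match to the element, which occurs in 6.70% of 32841 RefSeq promoter windows of this length.

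Hspa1a was at 24.6, 19.04 and 49.5 CPM in wild type, against 64.7, 62.4 and 82.9 CPM in knockout, and Hspa1b at 28.5, 20.8 and 60.7 CPM against 68.1, 69.9 and 95.4 CPM. All knockout libraries were above all wild-type libraries in both genes, with 176 and 177 lowest. The log2 fold changes were 1.17 ± 0.29 for Hspa1a (interval 0.54 to 1.80) and 1.09 ± 0.32 for Hspa1b (interval 0.39 to 1.78). For each gene the adjusted p was 0.984 in edgeR. Against wild-type 190 alone the values were 0.49 and 0.35. Reads of the copies may be split or shared, so they count as a single observation.

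Other heat shock genes had smaller values over all 6 libraries: the co-chaperone Dnajb1 had 0.00 ± 0.16, the small heat shock protein Hspb1 0.09 ± 0.16, the mitochondrial chaperonins Hspd1 -0.31 ± 0.17 and Hspe1 -0.08, and Hsph1 -0.06 ± 0.38. Against wild-type 190 alone Hspb1 was at 0.35 (interval 0.05 to 0.65) and Hspe1 at 0.34, near the 0.35 of Hspa1b, while Dnajb1 was at 0.03, Hspd1 at -0.07 and Hsph1 at -0.29. Immediate early genes, which respond to handling and stress within minutes, overlapped between genotypes for Fos (-0.06 ± 0.19), Jun (0.02 ± 0.21) and Egr1 (0.24 ± 0.15). Against 190 alone these were at 0.13, 0.26 and 0.31, and Ier2 (0.50), Atf3 (0.53), Fosb (0.31) and Junb (0.32) were also above 0. The nuclear receptor Nr4a1 was at 167, 168 and 116 CPM in wild type, against 269, 182 and 174 CPM in knockout (0.47 ± 0.20), highest in knockout 175, and its value against 190 alone was 0.84 (interval 0.44 to 1.24). Of the 22 genes of this list, 0 passed, 3 had an unadjusted p under 0.05 (2.47% of all genes did) and 4 had groups that did not overlap (8.3% of all genes). Their median was 0.08 with 15 above 0, and 0.31 with 19 above 0 without 176 and 177, where no gene of the list passed either.

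The other genes of smallest p on the higher side had groups that did not overlap by the rule that named them. Mrc2, an endocytic collagen receptor, was at 38.3, 26.4 and 45.1 CPM in wild type, against 58.0, 71.5 and 74.4 CPM in knockout, a log2 fold change of 0.89 ± 0.19 (interval 0.47 to 1.32, adjusted p 0.984) that was 0.59 against wild-type 190 alone. Pcdhgb6, a protocadherin of the clustered gamma family whose transcripts share exons, was at 9.76, 4.47 and 7.29 against 15.0, 14.7 and 15.9 CPM (1.08 ± 0.25). Plagl2, a zinc finger transcription factor, had wild-type libraries within 36.8 to 38.6 CPM and knockout libraries at 48.7, 60.5 and 53.5 CPM (0.53 ± 0.14). Its value against wild-type 190 alone was 0.56. Zc3h3, Prr36, Ston1, Atat1 and Slc25a35 followed, with log2 fold changes of 0.50 to 0.73.

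On the lower side, Atp6v0a4 (ENSMUSG00000038600, chromosome 6, 38048483 to 38124586), a membrane subunit of the proton pump V-ATPase, was the leading gene. Wild-type libraries held 8.999, 8.83 and 8.15 CPM, against 4.38, 4.17 and 3.14 CPM in knockout, a log2 fold change of -1.15 ± 0.23 (interval -1.65 to -0.65, adjusted p 0.984). The wild-type libraries agreed closely here, and the value against 190 alone was -1.07. Pgrmc1, a haem-binding membrane protein, was at 23.0, 26.2 and 21.3 against 14.3, 15.9 and 12.3 CPM (-0.73 ± 0.17, and -0.59 against 190 alone). Cers6, a ceramide synthase, was at 10.9, 7.40 and 13.1 against 6.02, 5.32 and 6.81 CPM (-0.79 ± 0.25). The glutathione transferases Gstm1 and Gstm2, which conjugate electrophiles, were at 79.5 to 103 against 64.3 to 69.1 CPM and at 15.3 to 19.6 against 11.2 to 13.2 CPM, with log2 fold changes of -0.43 ± 0.14 and -0.55 ± 0.17. These are paralogs of similar sequence, and reads may be split between them. Lars2, Pnp, Gpank1 and Eif5b made up the 10 with Hopx. Of the 20 genes chosen this way, 5 had less than a 0.5 share of their size against wild-type 190 alone. The rule itself fixed their sign there.

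**Figure D5:**
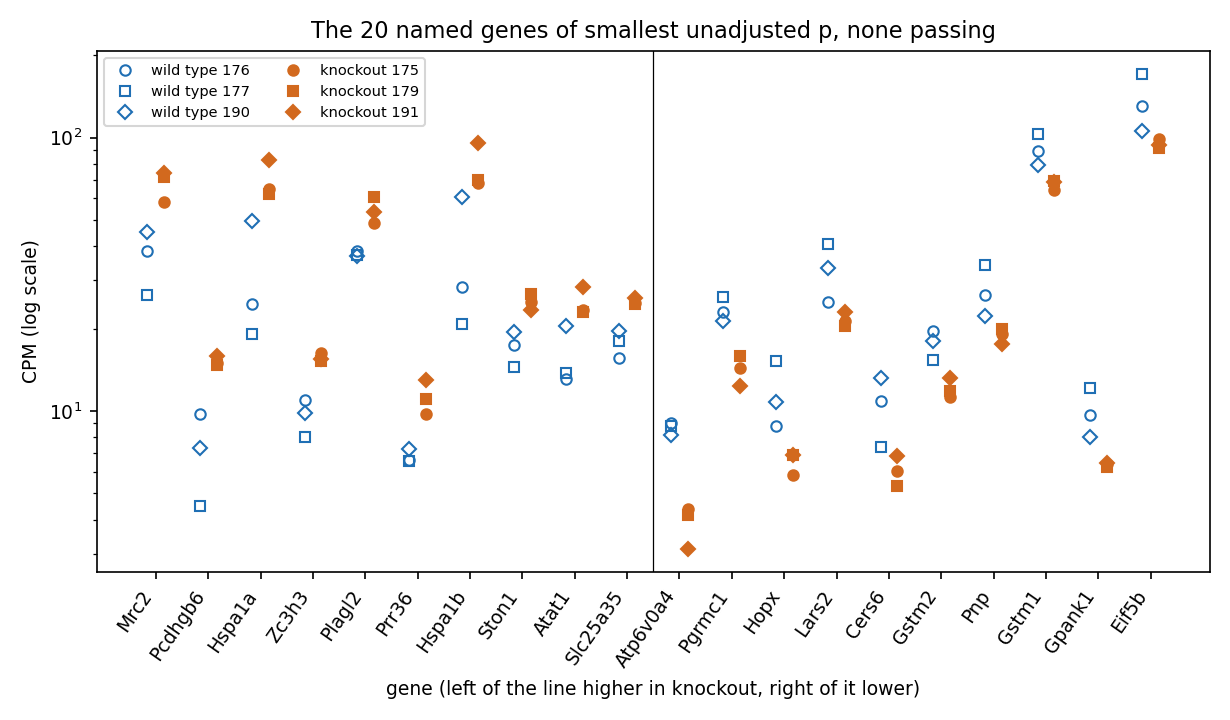
CPM (log axis) in each library of the 20 named genes of smallest unadjusted p, 10 higher and 10 lower in knockout; open blue symbols are wild type and filled orange symbols knockout. The groups of each gene do not overlap, as the rule that chose them required, and no gene passed the test (adjusted p 0.984 in edgeR for each).

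Across the 40 lists of genes for cell types and processes, 415 of 545 members were tested and 0 passed. An unadjusted p under 0.05 was found for 12 members, or 2.89%, next to 2.47% of all genes, and 30 members (7.23%) had groups that did not overlap, next to 8.3%. Intervals lay within 2-fold for 330 members (79.5%). These shares were near those of all genes tested. Among the 12 members were Hopx, Cyp2f2, Csf3r, Prdx2, Gstm1, Birc5, Mcm6, Hspa1a, Hspa1b, Nr4a1 and Med28.

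Enzymes that remove superoxide and peroxide had a median log2 fold change of -0.18 over 20 tested genes, with 2 above 0 and 18 bounded within 2-fold. Without wild-type 176 and 177 the median was 0.05, with 11 above 0. Prdx1, an abundant peroxiredoxin, shows the form: 243, 518 and 228 CPM in wild type, against 236, 234 and 251 CPM in knockout, with 177 alone high (-0.46 ± 0.27, and 0.07 against 190 alone). Sod1, the cytosolic superoxide dismutase, was at 203, 211 and 155 against 169, 158 and 159 CPM (-0.23 ± 0.15), high in 176 and 177. Catalase (Cat) was at 950, 1101 and 1130 against 1024, 1037 and 973 CPM, with an interval of -0.40 to 0.26. Prdx2, the only member with an unadjusted p under 0.05, had -0.36 ± 0.16, and -0.05 against 190 alone. The members whose groups did not overlap were peroxiredoxin 6 (Prdx6), which also handles oxidised phospholipids, and Sod2, of mitochondria. Prdx6 was at 358 to 430 against 325 to 350 CPM, and Sod2 at 91.3 to 109 against 85.0 to 90.3 CPM. By comparison, 15 housekeeping genes had a median of -0.20 with 2 above 0, and -0.02 with 7 above 0 without 176 and 177.

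In the pathway of NRF2, the transcription factor that induces antioxidant genes and is held down by Keap1, 19 of 20 tested genes were bounded within 2-fold. The median was -0.15 with 1 gene above 0, and -0.00 with 9 above 0 without 176 and 177. Nfe2l2, which encodes NRF2, had a log2 fold change of -0.14 ± 0.17 and Keap1 -0.01 ± 0.17. Among targets, Gclc, of glutathione synthesis, was at 778, 994 and 846 against 784, 883 and 868 CPM (-0.05 ± 0.16), and Hmox1, haem oxygenase, had -0.02 ± 0.15. Groups did not overlap in 5 of the 20 genes, next to 8.3% of all genes. An unadjusted p under 0.05 by edgeR was found for 1 of the 20, next to 2.47% of all genes. Srxn1, which repairs oxidised peroxiredoxins, was among the 5, with a log2 fold change of -0.42 ± 0.21. The only gene above 0 was Nqo1, a quinone reductase near 1 CPM, with an interval of -0.38 to 1.59 that bounds little. Of the enzymes that produce oxidants, 7 of 17 were tested. Xdh and Aox3, oxidases of purines and aldehydes, had 0.14 ± 0.17 and 0.10 ± 0.15.

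Genes that repair oxidised bases and strand breaks had a median of 0.02 over 28 tested genes, of which 23 were bounded within 2-fold. Ogg1, the glycosylase that removes 8-oxoguanine, was at 6.82, 6.996 and 6.43 CPM in wild type, against 5.37, 6.09 and 5.73 CPM in knockout. The groups did not overlap, but the log2 fold change was -0.24 ± 0.21 with an interval of -0.70 to 0.23. Nthl1, a glycosylase for oxidised pyrimidines, had -0.38 ± 0.24, Nudt1, which clears oxidised nucleotides, -0.20 ± 0.20, and Parp1, a sensor of strand breaks, 0.10 ± 0.14. Targets of p53 had a median of 0.02 over 17 tested genes, with 14 bounded within 2-fold. Cdkn1a, the cell cycle inhibitor p21, was at 45.0, 37.1 and 38.5 against 43.7, 40.2 and 37.9 CPM (0.01 ± 0.14), Mdm2 had 0.02 ± 0.16 and Trp53 itself 0.15 ± 0.15.

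Signals by which epithelium recruits or retains T cells included 10 tested genes of 17. Cdh1, E-cadherin, the ligand of CD103, was at 1076, 823 and 895 CPM in wild type, against 843, 884 and 823 CPM in knockout. Its log2 fold change was -0.13 ± 0.16, with an interval of -0.48 to 0.21. Il33, an alarmin, was at 511, 909 and 614 against 599, 562 and 643 CPM (-0.17 ± 0.20). The chemokine Cxcl16 had -0.04 ± 0.15 and the cytokines Tgfb1 -0.04 ± 0.15, Il7 0.11 ± 0.20 and Il15 -0.07 ± 0.28. The only member whose groups did not overlap was Icosl, the ligand of the T cell receptor ICOS, at 0.706, 0.860 and 0.804 against 1.58, 1.37 and 1.45 CPM (0.88 ± 0.42), a level at which few reads were counted. The summed level of the list was 1729, 1854 and 1633 CPM in wild type, against 1572, 1580 and 1606 CPM in knockout, so the groups did not overlap. Cxcl9, Cxcl11 and Tslp had 0 counts in all 6 libraries.

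All 7 genes of antigen presentation on MHC class II were bounded within 2-fold, with a median of -0.18, and 0.06 without 176 and 177. Cd74, the invariant chain, was at 4121, 4158 and 3023 against 3002, 3223 and 3246 CPM (-0.26 ± 0.17), and H2-Aa had -0.25 ± 0.17. Wild-type 190 lay with the knockout libraries in both. On MHC class I, 10 of 11 genes were bounded, and the exception was B2m, the light chain, at 165, 552 and 194 against 219, 231 and 222 CPM (-0.44 ± 0.36), where 177 was high. Interferon response genes had a median of -0.04 over 12 tested of 23, and NF-kB genes 0.03 over 15 tested of 19. Irf1 had -0.04 ± 0.15, Nfkbia 0.03 ± 0.16 and Icam1 -0.03 ± 0.15.

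Genes of surfactant lipid and fatty acid synthesis had a median of 0.12 over 16 tested genes, and 0.01 without 176 and 177. Fasn, fatty acid synthase, was at 4796, 2990 and 5467 CPM in wild type, against 5815, 6218 and 5017 CPM in knockout, with 177 low (0.36 ± 0.22). Scd1, the stearoyl desaturase, was highest in knockout 179, at 25085 CPM (0.25 ± 0.20). All 15 cholesterol synthesis genes were bounded within 2-fold, with a median of -0.24 that was 0.10 without 176 and 177. Of 24 respiratory chain genes 17 were bounded. The exceptions were mitochondrially encoded, such as mt-Nd2 at 450, 4251 and 2893 against 2641, 2626 and 1693 CPM, low in 176 and highest in 177, and nuclear genes such as Atp5b (-0.15 ± 0.15) were narrow. All 14 genes of the unfolded protein response were bounded, with Hspa5, the chaperone BiP, at -0.24 ± 0.17.

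Proliferation genes were scarce and wide. Of 18 genes, 0 passed, 9 were bounded within 2-fold and 5 were above 0. Their median was -0.19, and -0.20 without 176 and 177. Groups did not overlap in 5 of the 18 genes, next to 8.3% of all genes. An unadjusted p under 0.05 by edgeR was found for 2 of them, next to 2.47% of all genes. The summed level of the list was 220, 226 and 225 CPM in wild type, against 176, 211 and 175 CPM in knockout. The sums of 2 of the 40 lists did not overlap, this one and that of the T cell signals. Mki67, expressed in cycling cells, overlapped, at 13.1, 7.51 and 22.6 against 9.35, 20.5 and 6.57 CPM (-0.24 ± 0.43). Mcm6, a subunit of the replicative helicase, did not, at 32.6, 37.0 and 32.5 against 24.9, 27.1 and 26.6 CPM (-0.38 ± 0.14), whereas its partner Mcm4 had 0.03 ± 0.16. Birc5, survivin, was at 1.24, 2.01 and 1.21 against 0.175, 0.933 and 0.241 CPM (-1.69 ± 0.63). Outputs of RAS and MAPK signalling had a median of 0.06 over 23 tested genes. The feedback genes Dusp6 and Spry2 had 0.25 ± 0.17 and -0.15 ± 0.16.

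Med23 itself held 40.1, 34.4 and 46.4 CPM in wild type, against 42.1, 45.7 and 46.5 CPM in knockout (0.15 ± 0.15, interval -0.18 to 0.48). The groups overlapped, and these counts do not check the deletion, which was in T cells. Of 29 tested Mediator subunits 28 were bounded within 2-fold. Med28 had -0.33 ± 0.14 and Med18 0.48 ± 0.26, with groups that did not overlap, in opposite directions.

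Markers of other cell types ranged from near 0 to abundant. AT1 markers summed to 2582 to 3058 CPM, club cell markers to 1208 to 1507 CPM and markers of monocytes and other macrophages to 330 to 572 CPM, and the sums of the genotypes overlapped for each. Apoe, which many cell types express, made most of the last sum. No marker of T cells, NK cells, smooth muscle or erythroid cells was abundant enough to be tested. Neutrophil markers summed to 12.9 CPM in knockout 175 and to 2.20 to 3.33 CPM in the other 5 libraries, and endothelial markers to 16.7 against 10.9 to 12.4 CPM. Il1b (5.37 CPM) and Csf3r (6.02 CPM) were also highest in knockout 175, and the part of these cells in their differences was not tested. Scgb1a1, the secretory protein of club cells, was at 371 to 485 CPM in wild type, against 402 to 514 CPM in knockout. Cyp2f2, a cytochrome of club cells, was at 110, 155 and 126 against 201, 191 and 154 CPM (0.48 ± 0.17), with groups that overlapped.

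The genes with the narrowest intervals show the limit of precision of the comparison. Rab3d, a small GTPase of secretory vesicles, was at 71.2, 71.7 and 73.5 CPM in wild type, against 72.3, 73.4 and 71.2 CPM in knockout. Its log2 fold change was 0.00 ± 0.13, and its interval bounds the ratio to 0.828 to 1.21. Among the 10 narrowest genes were small differences without overlap. Aldh9a1, an aldehyde dehydrogenase, was at 92.2, 87.2 and 91.2 against 77.6, 75.8 and 77.8 CPM (-0.23 ± 0.13), and Prr14 at 56.7, 58.7 and 57.8 against 62.9, 64.9 and 65.7 CPM (0.16 ± 0.13). Neither passed the test, in which the spread of each gene is drawn towards that of all genes.

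At the other end, 68 genes with a mean of at least 5 CPM had an SD over 1 on the log2 scale in wild type and 15 in knockout. Spink5, a serine protease inhibitor of epithelia, was at 45.6 CPM in wild-type 176, had 0 counts in 177 and 190, and was at 32.8, 28.4 and 50.8 CPM in the knockout libraries. Fbn2, a fibrillin, was at 31.7, 3.27 and 28.8 against 17.8, 22.8 and 18.3 CPM, low in 177 alone. Some genes varied in both genotypes: Myom2, a muscle sarcomere protein, was at 2.53, 2.01 and 24.3 against 0.701, 25.9 and 2.89 CPM. Tdg, a DNA glycosylase with processed copies in the genome, was at 6.29, 33.0 and 6.31 against 33.0, 5.65 and 5.07 CPM, high in 1 library of each genotype.

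Genes that differed between lung tumours and adjacent tissue of the 18-month knockout mice were then read in the AT2 cells. In the lung libraries edgeR called 571 genes higher in tumours (2.86%) and 1436 lower (7.18%). Tumour and adjacent tissue came from the same mice, but this fit compared the groups only and did not use the pairing. Of those higher, 449 were tested in AT2 cells and 0 passed. Their median log2 fold change, knockout over wild type, was -0.01, with 48.1% above 0, as in all genes (48.9%), and 81.7% were bounded within 2-fold. Of those lower in tumours, 578 were tested and 0 passed. Their median was 0.08, with 60.9% above 0 (48.9% of all genes), and 45.0% were bounded within 2-fold (75.9% of all genes). When each library was left out in turn, this median ranged from 0.033 (without knockout 175) to 0.142 (without wild-type 176). The part of other cell types in it was not tested. An unadjusted p under 0.05 was found for 2.90% of the higher and 3.98% of the lower group, next to 2.47% of all genes.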

How the data were processed

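RNA of sorted AT2 cells was sequenced in 6 libraries, from separate numbered mice. The authors deposited raw counts per Ensembl gene. Per the labels' protocols, libraries were made from poly-A RNA with a kit that does not mark strand. The submitters' processing notes name FastQC, Trimmomatic 0.39, HISAT2, StringTie 1.3.3b, DESeq2 1.28.1 and GRCm38. How reads were counted, on which annotation and with what treatment of multiple matches is not stated in the labels or notes, so antisense, overlapping and near-identical genes are uncertain.

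Gene names and positions came from GENCODE M21. Of 54532 listed genes, 37 were not matched, with 0.00383% of counts. The filter filterByExpr kept 14053 genes. Counts were scaled by TMM and tested with edgeR 4.0.16 (quasi-likelihood, genotype only, R 4.3.3), with Benjamini-Hochberg adjustment over all tested genes. Standard errors and 95% intervals came from the same fit, and log2 CPM used a prior count of 2. Scripts were tested on simulated data. p-values measure only the spread between these mice.

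Named genes were Med23, the 10 genes of smallest p in each direction (mean of at least 5 CPM, groups not overlapping, predicted genes left out), the 10 of narrowest interval, the 10 most abundant, the 10 of largest SD in each genotype, the most abundant list members and all AT2 identity genes. Other list members and genes outside the rule were chosen after their values were seen. The genes and lists were chosen with earlier results of these data known. Alternatives were DESeq2 1.42.0, limma 3.58.1 (voom, quality weights), other scalings and filters, length and GC offsets, and leaving out libraries. Some list members are not reported here.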

Additional observations from a re-analysis of the deposited data

How the results depend on the processing

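Over 18 settings, no gene followed here turned its direction and passed the threshold. No gene passed in the main fit, so this is a weak check of direction. The sign differed from that of the main fit in 440 of 4304 results for single genes. Of 241 genes followed, 81 kept their sign in every setting. The number of genes called was 1 with DESeq2, 1 with sample quality weights, 17 with no filter on low counts, 0 to 1 when each library was left out in turn (Spink5 without wild-type 176, adjusted p 0.0042 in edgeR) and 6 without wild-type 176 and 177, a setting chosen after seeing the data. With no filter 26038 genes were tested. The number at an unadjusted p under 0.05 was 214 with quality weights, 1040 with no filter, 192 at a minimum of 5 CPM, 653 with length and GC offsets, 182 to 1579 leaving out 1 library and 614 without both. The number past 2-fold was 368 with limma voom, 7417 with no filter and 9 at a minimum of 5 CPM. It was 319 to 641 leaving out 1 library and 967 without 176 and 177. Genes bounded within 2-fold numbered 9627 to 11057 and equivalent genes 9866 to 11293. The settings tested different numbers of genes, and the bounded share ranged from 42.5% with no filter to 96.1% at a minimum of 5 CPM. It was 66.4% without wild-type 190, next to 75.9% in the main fit. The median of genes higher in tumours was 0.0496 when scaled by library totals, which moved the median of all genes to 0.0529. For the genes higher in tumours it was 0.0305 without 176 and 177. The median SD was 0.198 to 0.296 in wild type leaving out 1 library, and 0.253 in knockout with no filter. The causes were not tested. Low counts limit what can be bounded: no gene under 1 CPM was. No paired analysis of the AT2 libraries was possible because the 2 genotypes share no mouse numbers.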

Other observations

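Against wild-type 190 alone, edgeR called 6 genes, with the lone library assumed to vary as the knockout libraries do. Gm23935 (-1.13, adjusted p 0.00141) was among them, with Slc7a2 (-0.81), a transporter of cationic amino acids, and Rplp1 (0.73), a ribosomal protein of the stalk. The others were Spink5, Trmt9b and Gm10800, of which Spink5 had 0 counts in wild-type 190.

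A gene and its near-identical copy stood among those of largest SD, and in knockout the copy was highest where the gene was lowest. Rps27 held 68.2, 124 and 60.6 CPM in wild type 176, 177 and 190, against 74.1, 30.6 and 110 CPM in knockout 175, 179 and 191, and its copy Rps27rt at 61.8, 97.9 and 57.2 against 56.4, 101 and 13.7 CPM.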
